A study of Mus musculus with 74 samples.

Results

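Notch receptors, ligands and targets were followed in mouse mammary tumors and their lung metastases. The group held 10 genes chosen by name, namely the receptors Notch1, Notch2, Notch3 and Notch4, the ligands Dll4, Jag1 and Jag2, and the target genes Hes1, Hey1 and Heyl. All 10 had a mean for each tissue in the 5 tables used, out of 18208 genes in Her2, 19320 in C3Tag, 17270 in BALB, 17351 in SEAGN and 17829 in a table deposited under AKR. Bulk RNA-seq was done on primary tumors (PT) and lung metastases (Lung met) of transgene-positive female mice, 74 samples in all. In MMTV-Her2 the MMTV promoter drives the Her2 oncogene, and in C3TAg the C3(1) promoter drives the SV40 large T antigen, both on the FVB background. In the PyMT-F1 crosses, MMTV-PyMT mice on FVB were bred to AKR/J, BALB/NJ (as the labels spell it, with BALB/cJ in the study's methods) or SEA/GNJ, so that the polyoma middle T antigen was the driver in every cross. The labels give 6 PT and 6 Lung met samples for Her2 and for each cross, and 7 of each for C3Tag. The study's own sample list names more C3Tag primary tumors than the labels do, so how many stand behind the C3Tag PT mean was not settled. The PT and Lung met samples of a model came from the same animals by the sample names. Ages were not given. The PyMT mice were kept to a humane endpoint. In Her2 and C3Tag mice with a single lesion, the primary tumor was resected and the mice were then aged. All primary tumors of a mouse were pooled before RNA was taken, and a metastasis was used whole, so it could hold lung tissue.

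Each table gave 1 normalized mean per gene and tissue, made by the authors, and no value of a single animal. The spread between animals and the depth of the libraries are therefore unknown, and no difference below was tested. For 23 of the 36 PyMT-F1 samples the genotype label named a different strain than the sample name, and the sample name was followed. Which animals entered the table deposited under AKR was not settled, so its values stand apart and are not called those of AKR. The Myc model, with 6 samples of each tissue, was not analysed here. Each table was normalized separately, so levels are compared within a table and not between tables.

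Notch receptors are transmembrane proteins that are activated by ligands on a neighbouring cell. Proteases then free the intracellular domain, which enters the nucleus, binds Rbpj and switches on target genes, among them the basic helix-loop-helix repressors of the Hes and Hey families. In the mammary gland the pathway takes part in luminal cell fate. In blood vessels Dll4 and Notch4 are known from endothelium, and Notch3 and Heyl from the mural cells that wrap the vessel, with Heyl also found in endothelium.

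Of the 10 genes, Heyl was the one with a Lung met mean at least 2-fold above the PT mean in all 5 tables. Dll4 in C3Tag was the other gene past that limit in any table, and no member was 2-fold lower in any of them. That gave 1 of 10 members in Her2, 2 of 10 in C3Tag and 1 of 10 in each of BALB, SEAGN and the table deposited under AKR. Over all genes, the share at least 2-fold higher was 2.38% in Her2, 7.42% in C3Tag, 2.26% in BALB, 2.86% in SEAGN and 7.31% in the table deposited under AKR. The share at least 2-fold lower was 1.43%, 1.7%, 2.4%, 3.22% and 1.73% in the same order. With 10 genes, 1 called gene is already a larger share than any of these, so the counts say little about the members as a group.

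The median log2 ratio of Lung met over PT across the 10 members was 0.16 in Her2, 0.31 in C3Tag, 0.20 in BALB, 0.10 in SEAGN and 0.38 in the table deposited under AKR. The median of all genes was between -0.0013 and 0.030 in the 5 tables. Members with a higher mean in Lung met numbered 7 in Her2, 7 in C3Tag, 9 in BALB, 5 in SEAGN and 6 in the table deposited under AKR. Between its lowest and highest member, the log2 ratio ran from -0.17 to 1.14 in Her2, from -0.24 to 1.77 in C3Tag, from -0.12 to 1.30 in BALB, from -0.94 to 1.37 in SEAGN and from -0.49 to 1.59 in the table deposited under AKR. The upper end of every range was Heyl.

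**Figure D1:**
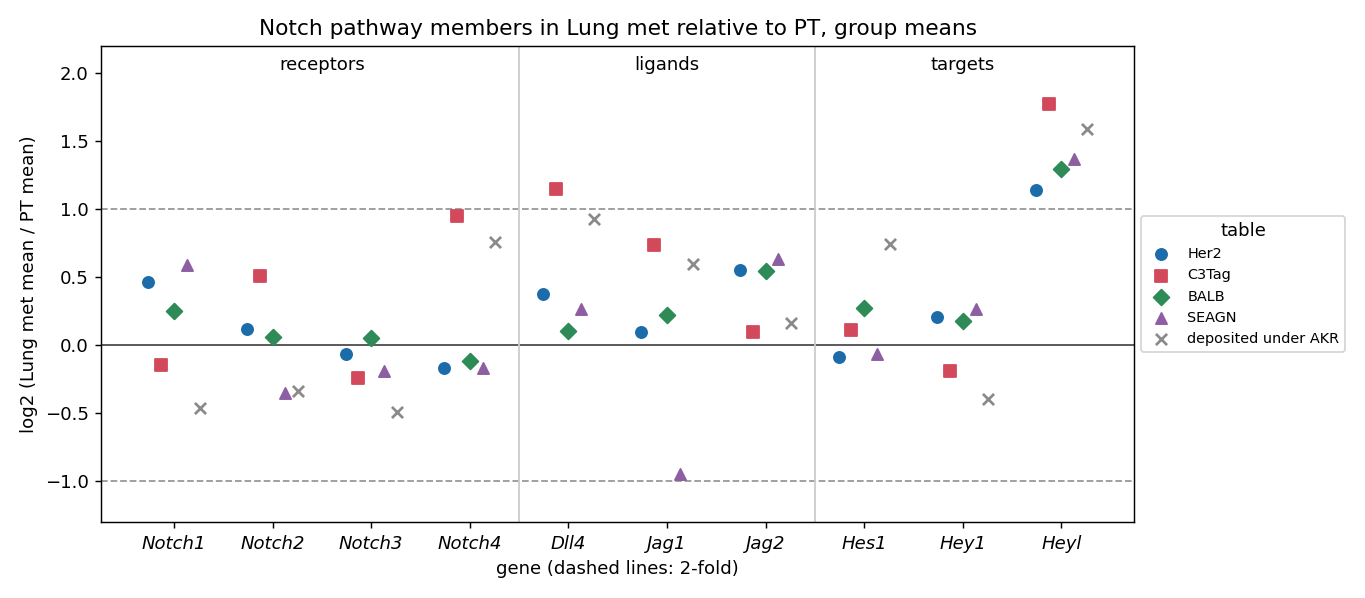
Log2 ratio of the Lung met mean over the PT mean (y axis) for the 10 members (x axis, grouped as receptors, ligands and targets), with 1 point per table and dashed lines at 2-fold. Heyl lies above the upper dashed line in all 5 tables, and Jag1 in SEAGN, at -0.94, is the lowest point.

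Heyl, a transcriptional repressor of the Hey family, lies on chromosome 4 (GRCm38, chr4:123233556-123249875, plus strand). In Her2 its normalized mean was 72.4 in PT and 160.0 in Lung met, a ratio of 2.21. In C3Tag the means were 122 and 418, a ratio of 3.42, the widest of the 5 tables. In BALB they were 48.5 and 119, a ratio of 2.45. These ratios placed Heyl above 98.0%, 97.1% and 98.7% of all genes of the respective tables.

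SEAGN gave Heyl means of 48.2 in PT and 124 in Lung met, a ratio of 2.58 that exceeded 98.4% of genes. The table deposited under AKR gave 70.7 and 213, a ratio of 3.01 that exceeded 96.7% of genes. Without that table the ratio was past 2-fold in 4 of 4 tables. Heyl was a gene of low to middle level in PT, where between 26.5% and 34.4% of genes had a lower mean, and in Lung met that share was between 35.5% and 51.3%. Among the 11920 genes with a unique symbol and a mean of at least 10 in either tissue of every table, 68 were at least 2-fold higher in all 5 tables, or 0.57%, and Heyl was one of them.

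**Figure D2:**
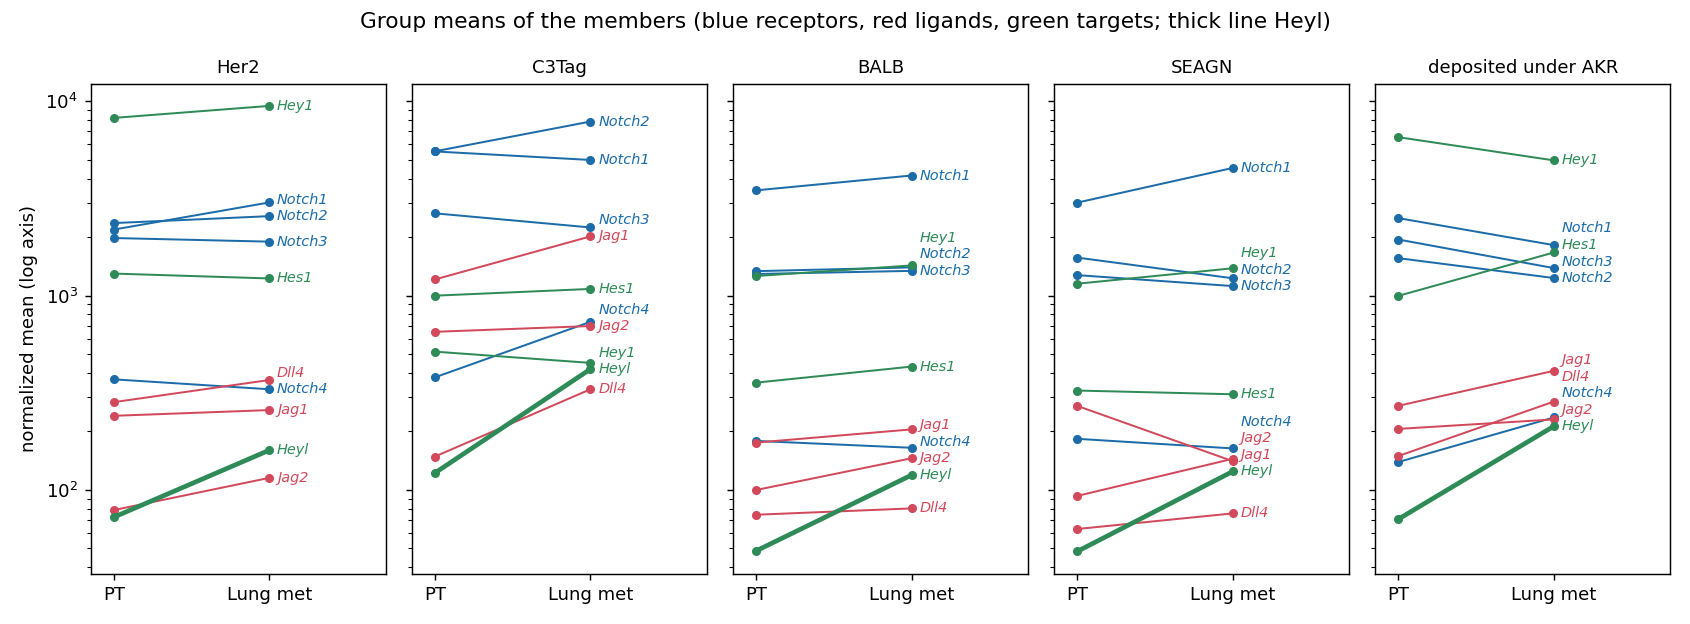
Normalized group mean (log axis) of each member in PT and Lung met, 1 panel per table, with receptors in blue, ligands in red, targets in green and Heyl as the thick line. Heyl has the lowest PT mean of the 10 members in each of the 5 panels, and its line is the steepest in each.

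The median of the endothelium markers was also higher in Lung met in every table. The part of vessel cells in the Heyl result was not tested. In bulk tissue, more cells of a type and more RNA per cell cannot be told apart. All 15 endothelium markers had means in every table, none of them listed at 0. Their median log2 ratio was 0.59 in Her2, 1.29 in C3Tag, 0.56 in BALB, 0.50 in SEAGN and 1.59 in the table deposited under AKR. Of the 15 markers, 3, 11, 1, 2 and 14 were at least 2-fold higher in these tables, and none was 2-fold lower. Emcn, Robo4 and Sox18 were lower in Lung met of BALB and SEAGN, with log2 ratios from -0.33 to -0.013.

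The summed mean of the endothelium markers was 5881 in PT and 9243 in Lung met of Her2, and 6976 and 14239 in C3Tag. It was 1829 and 2645 in BALB, 2008 and 2943 in SEAGN, and 4014 and 13502 in the table deposited under AKR. The log2 ratio of Heyl lay above 12 of the 15 markers in Her2, 12 in C3Tag, 14 in BALB and 14 in SEAGN, but above 7 in the table deposited under AKR. Set against the endothelium median, Heyl stood 0.56 higher on the log2 scale in Her2, 0.49 in C3Tag, 0.73 in BALB and 0.86 in SEAGN. In the table deposited under AKR it stood at -0.0027, level with the markers. Heyl was thus less than 2-fold above the endothelium median in every table.

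Arterial endothelium markers had a higher median log2 ratio than Heyl in SEAGN and in the table deposited under AKR, and a lower one in the other 3. Their median log2 ratio was 0.69 over 5 genes in Her2 and, over 4 genes each, 1.70 in C3Tag, 1.00 in BALB, 1.53 in SEAGN and 2.65 in the table deposited under AKR. Above Heyl were 1 of 5 arterial markers in Her2, 2 of 4 in each of C3Tag, BALB and SEAGN, and 3 of 4 in the table deposited under AKR. Mural cell markers had lower medians, at 0.41 in Her2, 0.29 in C3Tag, -0.09 in BALB, 0.37 in SEAGN and 0.65 in the table deposited under AKR. In BALB they ran from -1.65 for Des to 1.25 for Higd1b. No mural marker of 10 in Her2, C3Tag and BALB or of 7 in SEAGN had a log2 ratio above that of Heyl, while 2 of 7 did in the table deposited under AKR.

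**Figure D3:**
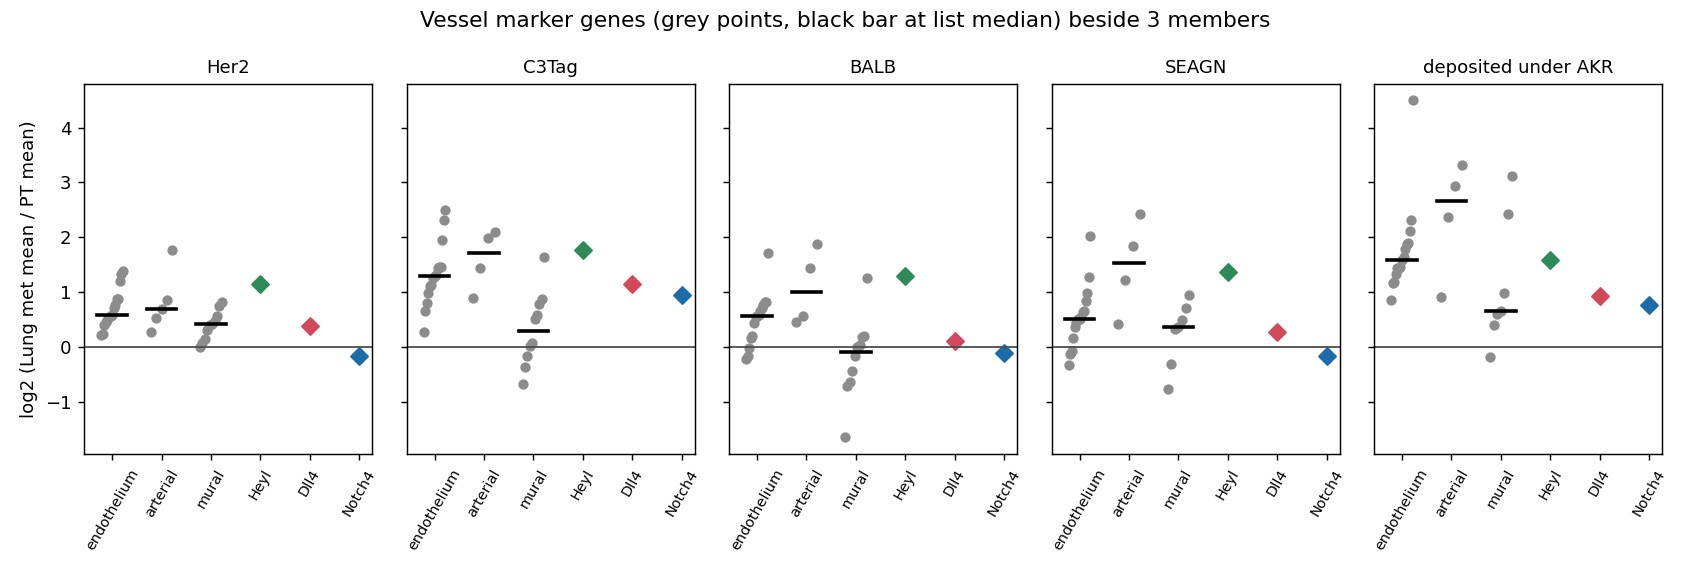
Log2 ratio of the Lung met mean over the PT mean (y axis) for single marker genes of endothelium, arterial endothelium and mural cells (grey points, black bar at the list median), beside Heyl, Dll4 and Notch4 (coloured diamonds), 1 panel per table. Heyl is above most endothelium markers in the first 4 panels and level with their median in the last, and Notch4 is below 0 in Her2, BALB and SEAGN.

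Other cell type markers differed between the tissues as well, and what they contributed to the members' means was not tested. Lung epithelium markers, of which 6 or 7 of 11 had means, showed medians between 3.54 and 4.75 on the log2 scale. Foxj1 stood apart from the others, with log2 ratios from -0.42 in SEAGN to 0.94 in C3Tag and no value in Her2. Sftpa1, Sftpb, Sftpc and Scgb1a1, which define lung epithelium, were on the list but had no usable pair of means in any table, so the medians leave them out. Fibroblast markers had medians from -2.42 in SEAGN to -0.06 in C3Tag, but did not move as one. Pdgfra was higher in Lung met in every table, with log2 ratios from 0.44 in SEAGN to 0.94 in the table deposited under AKR. In C3Tag, Dcn was also higher, at 0.75, and Col3a1 stood at 0.01. Medians of the leukocyte markers ranged from -0.32 in Her2 to 1.06 in the table deposited under AKR. Medians of the mammary tumor epithelium markers ranged from -0.25 in C3Tag to 0.52 in BALB. Epcam, a surface protein of epithelium, had means of 49467 in PT and 46274 in Lung met of Her2, and 20929 and 13066 in C3Tag. Its log2 ratio was -0.68 in C3Tag and between -0.10 and 0.05 in the other tables. Single mammary tumor epithelium markers ran from -0.10 for Epcam to 3.81 for Krt19 in Her2 and from -1.51 for Krt14 to 0.64 for Krt8 in C3Tag. In Her2, Krt8 and Krt18 were lower in Lung met like Epcam, and Krt14, Krt17, Krt19, Cdh1 and Elf5 were higher. In C3Tag, Krt14, Krt17 and Elf5 were lower like Epcam, and Krt8, Krt18, Krt19 and Cdh1 were higher.

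The genes whose ratios were closest to those of Heyl over the 5 tables were F2r, Itgb2 and Fgd5. Likeness was measured as the root-mean-square difference of the log2 ratios, which was 0.20 for F2r, 0.22 for Itgb2 and 0.25 for Fgd5 among 11920 genes. F2r had log2 ratios of 0.87 in Her2, 1.62 in C3Tag, 1.32 in BALB, 1.07 in SEAGN and 1.46 in the table deposited under AKR. Without the last table the closest genes were Icam2 at 0.07, Grap at 0.14 and Clec4e at 0.16, so the list depended on that table.

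The receptors had no gene past 2-fold. Notch1, on chromosome 2 (chr2:26457903-26516663, minus strand), had means of 2185 in PT and 3012 in Lung met of Her2, 5512 and 4983 in C3Tag, 3476 and 4144 in BALB, and 3007 and 4534 in SEAGN. In the table deposited under AKR the means were 2501 and 1816. The log2 ratios were 0.46, -0.15, 0.25, 0.59 and -0.46 in this order, so Lung met was higher in 3 of 5 tables, with SEAGN at one end and the table deposited under AKR at the other.

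Notch2, on chromosome 3 (chr3:98013527-98150361, plus strand), had its widest ratio in C3Tag, from 5522 in PT to 7854 in Lung met, a log2 ratio of 0.51. In Her2 it was 2359 and 2561, and in BALB 1334 and 1396. SEAGN had 1567 and 1226, a log2 ratio of -0.35, and the table deposited under AKR 1556 and 1230, a log2 ratio of -0.34. The direction of Notch2 thus differed between tables.

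Notch3, on chromosome 17 (chr17:32120820-32166852, minus strand), had a lower mean in Lung met in 4 of 5 tables. The means were 1976 and 1893 in Her2, 2648 and 2240 in C3Tag, 1291 and 1339 in BALB, and 1273 and 1118 in SEAGN. The table deposited under AKR had 1941 and 1384, with the lowest log2 ratio of Notch3 at -0.49. In the other 4 tables it stayed between -0.24 and 0.05. Heyl, also known from mural cells, had a log2 ratio of at least 1.14 in the same 5 tables.

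Notch4, on chromosome 17 (chr17:34564268-34588503, plus strand), differed between tables. C3Tag had 379 in PT and 732 in Lung met, a log2 ratio of 0.95, and the table deposited under AKR had 139 and 236, a log2 ratio of 0.76. Her2 had 370.4 and 329, BALB 179 and 165, and SEAGN 183 and 163, with log2 ratios from -0.17 to -0.12. The tables with the higher Notch4 ratio were those with the higher endothelium median, 1.29 and 1.59 against 0.50 to 0.59 in the others, and the part of endothelium in the Notch4 ratio was not tested.

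Dll4, the ligand known from sprouting vessels, lies on chromosome 2 (chr2:119325784-119335962, plus strand) and had a higher mean in Lung met in all 5 tables. In C3Tag the mean was 148 in PT and 329 in Lung met, a log2 ratio of 1.15. In the table deposited under AKR it was 149 and 285, a log2 ratio of 0.93. Her2 had 283 and 367, BALB 74.5 and 80.3, and SEAGN 62.9 and 75.7, with log2 ratios of 0.38, 0.11 and 0.27. Most endothelium markers had a higher log2 ratio than Dll4 in every table, from 9 of 15 in C3Tag to 14 of 15 in the table deposited under AKR.

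Jag1, a ligand on chromosome 2 (chr2:137081456-137116644, minus strand), had the lowest log2 ratio of any member. In SEAGN its mean was 270.3 in PT and 140.5 in Lung met, a log2 ratio of -0.94, with 3.64% of genes lower. In C3Tag it was 1210.0 and 2014, a log2 ratio of 0.74, and in the table deposited under AKR 271 and 410, a log2 ratio of 0.60. Her2 had 240.4 and 257, and BALB 175 and 205, with log2 ratios of 0.10 and 0.23. SEAGN thus differed in direction from the other 4 tables, and this difference was not tested.

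Jag2, on chromosome 12 (chr12:112907819-112929776, minus strand), was higher in Lung met in all 5 tables without reaching 2-fold. The means were 78.7 and 115 in Her2, 99.8 and 145 in BALB, and 93.1 and 144 in SEAGN, with log2 ratios of 0.55, 0.54 and 0.63. In C3Tag they were 651 and 697 and in the table deposited under AKR 206 and 230.4, with log2 ratios of 0.10 and 0.16. Jag2 and Dll4 were therefore the members besides Heyl with the same direction throughout.

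Hes1, a repressor that is a classical Notch target, lies on chromosome 16 (chr16:30064384-30067796, plus strand). Its means were close in most tables, with 1297 in PT and 1224 in Lung met of Her2, 998 and 1081 in C3Tag, 356 and 431 in BALB, and 324 and 310.3 in SEAGN. The table deposited under AKR had 996 and 1665, a log2 ratio of 0.74, against -0.08 to 0.27 in the other 4.

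Hey1, the relative of Heyl on chromosome 3 (chr3:8663359-8667256, minus strand), had the highest mean of the 10 members in Her2 and in the table deposited under AKR. In Her2 it was 8202 in PT and 9454 in Lung met, above 97.4% of genes in PT. BALB had 1260 and 1428, and SEAGN 1150.1 and 1381. C3Tag had 514 and 450.1, and the table deposited under AKR 6526 and 4958. The log2 ratios ran from -0.40 to 0.26, so the 3 targets did not share a pattern: Heyl was past 2-fold in every table, and Hes1 and Hey1 in none.

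Dividing each mean by the length of the gene's annotated exons allowed levels to be compared between genes of 1 table. The BALB and SEAGN tables carry identifiers of a BALB/cJ annotation, and their means were divided by the lengths of the reference genes of the same symbol. Among receptors, Notch4 had the lowest mean per kilobase in both tissues of every table, between 2.99% and 6.94% of the receptor total. The most abundant receptor per kilobase in PT was Notch3 in Her2 with 36.9% and in the table deposited under AKR with 41.6%, Notch2 in C3Tag with 40.2%, and Notch1 in BALB with 44.4% and in SEAGN with 39.4%. In Lung met of SEAGN the Notch1 share was 53.9%, and in Lung met of C3Tag the Notch2 share was 50.4%. In Her2 the order of Notch2 and Notch3 differed between the tissues, at 219 and 244 per kilobase in PT and 237 and 234 in Lung met. These orders held for exon length. With the longest transcript as length, Notch1 led in PT of C3Tag with 38.9% and in the table deposited under AKR with 39.0% in PT and 37.0% in Lung met, and also in Lung met of Her2 with 37.5%. Without a spread, neighbours in these orders cannot be separated.

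Among ligands, Dll4 had the highest mean per kilobase in Her2, with 58.3% of the ligand total in PT and 61.1% in Lung met. Jag1 was highest in PT of the other 4 tables, from 40.5% in the table deposited under AKR to 61.1% in C3Tag. In SEAGN the Jag1 share was 61.0% in PT and 37.4% in Lung met, where Jag2 led by the longest transcript with 38.5%. Among targets, Hey1 made up 79.4% of the PT total per kilobase in Her2, whereas in C3Tag Hes1 made up 73.0%. Heyl was the lowest target in both tissues of every table, with a share of 0.45% in PT and 0.89% in Lung met of Her2, and 3.56% and 10.9% in C3Tag.

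**Figure D4:**
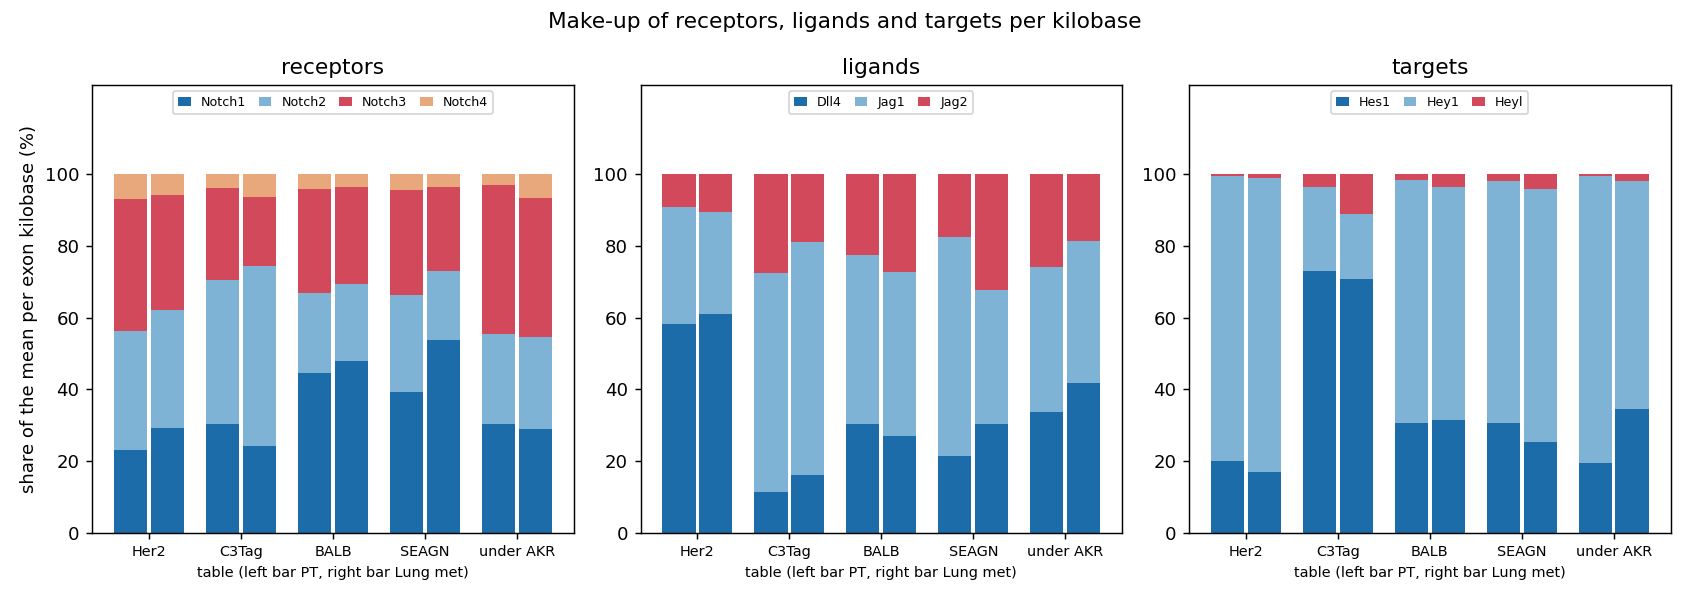
Share (%) of each gene in the summed mean per exon kilobase of the receptors, ligands and targets, with the left bar of each pair for PT and the right bar for Lung met, by table. Notch4 is the thinnest receptor band throughout, and the Heyl band is thin but wider in Lung met than in PT in each pair.

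A limit of 1.5-fold took in more members in C3Tag, SEAGN and the table deposited under AKR, but not in Her2 or BALB. At least 1.5-fold higher were 1 of 10 in Her2, 4 in C3Tag, 1 in BALB, 3 in SEAGN and 5 in the table deposited under AKR, against 5.42%, 14.0%, 6.2%, 7.11% and 13.6% of all genes. The 4 in C3Tag were Notch4, Dll4, Jag1 and Heyl, and the 3 in SEAGN were Notch1, Jag2 and Heyl. At least 1.5-fold lower was Jag1 in SEAGN alone, against 3.62%, 5.61%, 6.76%, 8.32% and 6.32% of all genes in the same order of tables.

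Few of the other genes of the pathway were past 2-fold, and their shares were not tested against those of all genes. Of 57 listed genes, between 47 and 54 had means in a table. None was at least 2-fold higher in Her2, BALB or SEAGN, against 2.38%, 2.26% and 2.86% of all genes. In C3Tag 2 of 54 were and in the table deposited under AKR 3 of 53, or 3.7% and 5.66%, against 7.42% and 7.31% of all genes. No listed gene was 2-fold lower in any table, against 1.43% of all genes in Her2 up to 3.22% in SEAGN. With so few genes listed, these counts say little about the list. The median log2 ratio of the list was between -0.04 and 0.09. No gene was past 2-fold in 3 tables or more, so for each step of the pathway the gene with the largest absolute median was taken.

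Dlk1, a secreted or membrane-bound relative of the ligands, had a mean of 21.6 in PT and 3687 in Lung met of C3Tag, a log2 ratio of 7.42 that rests on 1 mean per tissue. In the table deposited under AKR, the other table with values for it, the means were 5.37 and 7.59. Hey2, the remaining Hey gene, had 26.0 and 45.6 in Her2 and log2 ratios from -0.37 to 0.81 over the tables. Mfng, which adds sugars to Notch receptors, was higher in Lung met in all 5 tables, with log2 ratios from 0.23 in Her2 to 1.40 in the table deposited under AKR, where its means were 53.0 and 139.8.

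Aph1c, a subunit of the gamma-secretase complex that cuts Notch, had log2 ratios from -0.0085 in Her2 to 0.70 in C3Tag. Neurl1b, a ubiquitin ligase for Notch ligands, had a lower mean in Lung met in 4 of 5 tables, with log2 ratios from -0.45 to 0.34. Ctbp2, a corepressor, stayed between -0.11 and 0.25. The genes past 2-fold besides Dlk1 and Mfng, named after their values were seen, were Psen2 in C3Tag at 1.17 and Nrarp and Lfng in the table deposited under AKR at 1.15 and 1.17. Nrarp is a feedback inhibitor of Notch, Lfng a sugar transferase like Mfng, and Psen2 a catalytic subunit of gamma-secretase.

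**Figure D5:**
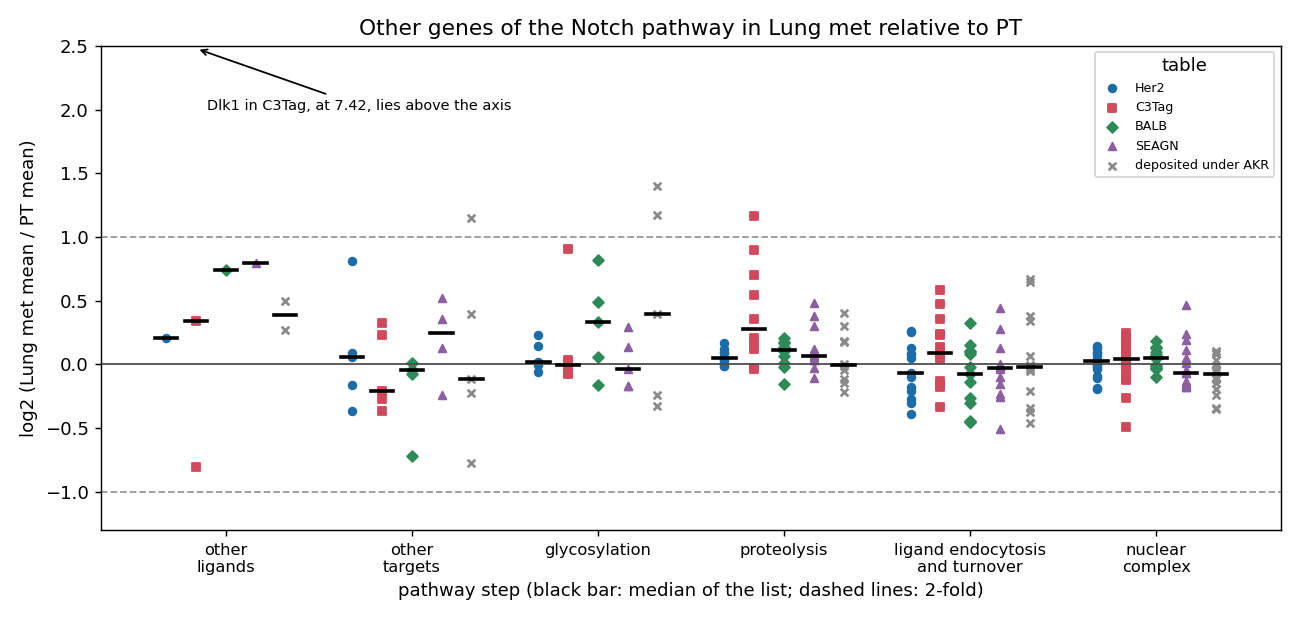
Log2 ratio of the Lung met mean over the PT mean (y axis) for the other genes of the pathway by step (x axis), with 1 point per gene and table, a black bar at each median and dashed lines at 2-fold. Most points lie between the dashed lines, and Dlk1 in C3Tag, at 7.42, is beyond the axis.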

How the data were processed

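RNA-seq tables of Lung met and PT were analysed. The signal values used were deposited by the authors as least-squares means of normalized gene counts, 1 per tissue, from Partek Flow, where DESeq2 served for the PyMT-F1 crosses and Gene Specific Analysis for Her2 and C3Tag. The submitters' processing notes name STAR 2.7.8a, DESeq2 and mm39, whereas the study's methods name other builds. The deposited tables also hold the authors' p-value, FDR, ratio and fold change, which were not used. The Myc table holds nothing else, so it was not used. Some fold changes in the table deposited under AKR also appear in the study's list for another cross. Strandedness of the counting was not given in the sources used here, and 4 of the members overlap a gene on the other strand (Notch1, Notch3, Notch4 and Dll4). On the same strand, Notch1 overlaps Mir6996, Notch2 overlaps Gm42819 and Gm42820, and Jag2 overlaps Mir6941.

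Genes were matched by symbol, each member having 1 row per table. The log2 ratio is that of the Lung met mean over the PT mean, with no pseudocount and no filter. Called means at least 2-fold. With only means there was no test, SD or n, and depth is unknown, so precision cannot be given. The members, lists and rules were chosen with earlier results of these data known. Of other pathway genes, those past 2-fold in 3 tables in 1 direction were to be named, otherwise the one with the largest absolute median per list, and for a member past 2-fold in 3 tables the 3 genes of nearest ratio. Exon lengths and coordinates are from GENCODE M21 on GRCm38, in which all 10 member identifiers of the Her2 table were found. BALB and SEAGN use BALB/cJ identifiers and were matched to it by symbol. The ratio and call steps were tested on simulated data with changes well past the 2-fold limit and little noise. That checks the code alone, and calls near the limit were not probed. Alternatives were a pseudocount of 10, centring on the median of all genes or of the endothelium list, a 1.5-fold limit, a mean of at least 10 and the longest transcript as length. Leaving out the table deposited under AKR was chosen after seeing the data. A value was taken as moved at a shift of 0.58 (log2) or more, and a count at over 1.5 times. Python 3.11.15, numpy 2.4.6, pandas 2.3.3 and matplotlib 3.10.9 were used.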

Additional observations from a re-analysis of the deposited data

How the results depend on the processing

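Only group means were analysed, so no result carries an error, and leaving out single animals was not possible. No paired analysis was possible because the tables hold 1 mean per tissue and no value of an animal. A pseudocount of 10, centring on the median of all genes and a minimum mean of 10 moved none of the counts, medians or ratios they were applied to, and Heyl stayed between 1.04 and 1.77 (log2) under the first 2 and as reported. The longest transcript as length moved no receptor share in PT by over 1.5 times, but put Notch1 first in place of Notch2 in PT of C3Tag, of Notch3 in both tissues of the table deposited under AKR and of Notch2 in Lung met of Her2. Centred on the endothelium list, 0 members were 2-fold higher in all 5 tables, and 5 were 2-fold lower in C3Tag, 1 in SEAGN and 5 in the table deposited under AKR. The member medians were then -0.43 in Her2, -0.97 in C3Tag, -1.21 in the table deposited under AKR, -0.36 in BALB and -0.40 in SEAGN, all below 0. Dll4 in C3Tag turned to -0.14 and Heyl in the table deposited under AKR to -0.0027. These shifts follow from subtracting the marker median. In C3Tag and the table deposited under AKR the median of all genes was then also more than 2-fold lower. The counts of lower members therefore do not show a fall of the members. The share of all genes past 2-fold after this centring was not computed. With a 1.5-fold limit, 4, 3 and 5 members were higher in C3Tag, SEAGN and the table deposited under AKR, and 1 lower in SEAGN. Of the other pathway genes, 1 of 52 was then higher in Her2, 6 of 54 in C3Tag, 2 of 49 in BALB and 1 of 47 in SEAGN. In the table deposited under AKR it was 5 of 53. Over all genes the share was 5.42%, 14.0%, 6.2%, 7.11% and 13.6% in this order. Lower was 1 each in C3Tag, BALB and the table deposited under AKR, against 5.61%, 6.76% and 6.32% of all genes. None was lower in Her2 or SEAGN, against 3.62% and 8.32%.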
